A study of Saccharomyces cerevisiae with 16 samples.

Results

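The regions described here lay under an RNAPII peak in every heat shock list and under no peak in any untreated list. They were found in peak lists from RNAPII chromatin immunoprecipitation sequencing (ChIP-seq) in *Saccharomyces cerevisiae*, made with the 8WG16 antibody against Rpb1, the largest RNAPII subunit. The regions were chosen by the deposited peak positions alone: a region was kept when an uninterrupted interval of at least 100 bp was covered by peaks in all 4 heat shock lists and by none of the 4 untreated lists. There were 55 such regions, against 1908 stretches under a peak in at least 1 of the 8 lists. They covered 24218 bp, which was 0.201% of the nuclear genome of 12071326 bp, and had a median length of 267 bp (101 to 2113 bp).

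All strains were W303a, either WT or carrying *ubc9-6*, an impaired allele of the gene for Ubc9, the SUMO-conjugating enzyme. Per the study's methods, the allele was integrated at *UBC9* as a tandem arrangement of mutant copies, and the strain is a model of reduced, not absent, sumoylation. Mid-log cultures in SC medium were kept at 30 °C (untreated) or moved to 37 °C for 12 min (heat shock). The 4 groups were WT untreated, *ubc9-6* untreated, WT heat shock and *ubc9-6* heat shock, with 2 independent replicates each, and every replicate had a peak list of its own. The series has 16 samples, of which 8 are inputs that entered through peak calling only.

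When yeast is moved to a higher temperature, the heat shock factor Hsf1 binds heat shock elements and raises transcription of chaperone genes, and the stress factors Msn2 and Msn4 bind stress response elements in front of a wide set of genes for carbohydrate metabolism, cell wall and redox functions. RNAPII then travels through the ORF and past the stop codon. A ChIP peak reports where RNAPII was enriched over input, and a called peak can span several neighbouring genes. A region of the present kind can therefore be a peak of its own, or the part by which a peak of a gene already occupied in untreated cells reached further after heat shock.

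The 8 lists were alike in size. They held 1451 to 1545 peaks and covered 23.0% to 25.4% of the nuclear genome each. The reads behind each list are not given with the peaks, so depth is unknown, and a region without a peak is one where none was called, not one without RNAPII. Since the rule used the heat shock contrast itself, presence after heat shock and absence before it are descriptions and were not tested. Stretches of at least 100 bp with a single pattern of lists numbered 7238 in all, and the 55 regions made up 0.76% of them. The mirror pattern, under peaks of the 4 untreated replicates but of none after heat shock, also gave 55 regions (0.76%), with 28199 bp in all and a median of 285 bp.

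The number of regions depended on which lists were required. Without WT untreated replicate 1 it was 160, and without WT heat shock replicate 1 it was 91. Without any 1 of the other 6 lists it was between 58 and 76. Leaving out a list only relaxes the rule, so the covered length cannot go down, although neighbouring regions can merge.

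Sequences upstream of 4 genes that lay in or began in a region are shown first, because each carries a stress response element or a heat shock element. Each is the stretch from 300 to 101 bases before the start codon, 5′ to 3′ on the strand of the gene, from the RefSeq R64 reference, which has the same nuclear chromosomes as sacCer3. It is the sequence of the reference strain, not of W303a. Capitals mark a stress response element (AGGGG, read as CCCCT on the other strand) in *SPI1*, *GND2* and *YNL194C*, and in *ZPR1* a heat shock element, defined here as 3 alternating units TTC, GAA and TTC with 2 free bases between them, on either strand. They are located at chrV:468070-468269 (plus strand), chrVII:1004324-1004523 (plus strand), chrXIV:273716-273915 (minus strand) and chrVII:914941-915140 (plus strand).
SPI1: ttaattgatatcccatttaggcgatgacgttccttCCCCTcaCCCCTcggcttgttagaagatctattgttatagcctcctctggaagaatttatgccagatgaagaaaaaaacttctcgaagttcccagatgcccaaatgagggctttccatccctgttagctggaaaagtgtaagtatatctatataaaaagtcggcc
GND2: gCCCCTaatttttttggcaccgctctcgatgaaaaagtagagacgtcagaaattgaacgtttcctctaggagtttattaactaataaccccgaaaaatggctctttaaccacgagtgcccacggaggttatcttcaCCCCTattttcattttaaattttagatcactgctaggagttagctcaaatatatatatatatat
YNL194C: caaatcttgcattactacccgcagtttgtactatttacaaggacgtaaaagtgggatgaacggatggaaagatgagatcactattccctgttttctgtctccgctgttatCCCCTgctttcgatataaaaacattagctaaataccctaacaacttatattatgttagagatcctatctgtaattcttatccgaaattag
ZPR1: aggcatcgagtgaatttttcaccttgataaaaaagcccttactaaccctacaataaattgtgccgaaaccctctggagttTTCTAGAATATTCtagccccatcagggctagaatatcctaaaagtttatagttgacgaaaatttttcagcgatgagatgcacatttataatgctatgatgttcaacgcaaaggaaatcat

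The *SPI1* stretch held 2 stress response elements 2 bases apart, and the *GND2* stretch held 2 that began 299 and 164 bases before the start codon. The *GND2* region covered the whole stretch shown. The *SPI1* region covered 38 bp of its stretch and the *YNL194C* region 79 bp, and in both the elements lay outside the region. The heat shock element of *ZPR1* began 220 bases before the start codon, and none of the stretch shown lay in the *ZPR1* region.

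The longest region was that of *SSA3*, a stress-inducible cytosolic Hsp70 chaperone, at chrII:84492-86604 (2113 bp). It held the whole ORF, which was 0% covered in each untreated list and 100% covered in each heat shock list. The peak over it had a fold over input of 1.59 and 2.15 in the WT heat shock replicates and of 1.94 and 2.01 in those of *ubc9-6*, so the strains overlapped. An untreated peak over *ILS1*, the neighbouring isoleucyl-tRNA synthetase gene, or its end nearest to *SSA3*, stopped 162 bp and 199 bp short of the region in WT replicates 1 and 2. In *ubc9-6* that peak stopped at the region's edge in replicate 1 and 16 bp short of it in replicate 2. On the other side the nearest untreated peak was 1040 bp away. *SSA3* and its closest copy *SSA4* were 78.1% identical, with a longest identical run of 17 bp.

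*SPI1*, which encodes a GPI-anchored cell wall protein induced by stress, was the clearest case of a peak standing alone (chrV:468232-468981, 750 bp). Its ORF was uncovered in the 4 untreated lists and fully covered in the 4 heat shock lists, and no untreated list had a peak within 1841 bp on the left or 6909 bp on the right. The whole peak was 768 bp and 831 bp wide in the WT replicates and 1347 bp and 1430 bp wide in the *ubc9-6* replicates. The *ubc9-6* peaks were thus wider than both WT peaks, and the extra length lay mostly past the stop codon, where they ran 535 bp and 640 bp beyond the region against 0 bp and 81 bp in WT. The fold over input was 2.21 and 2.36 in WT and 2.73 and 2.41 in *ubc9-6*.

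*YNL194C*, which encodes a membrane protein of the Sur7 family, also had a peak of its own (chrXIV:272293-273794, 1502 bp) and 100% of its ORF covered in each heat shock list against 0% in each untreated list. The nearest untreated peaks were 1744 bp and 1645 bp away. On the left, past the stop codon of *YNL194C*, the peak extended 0 bp and 110 bp beyond the region in WT and 964 bp and 976 bp in *ubc9-6*, where it ran over all of the next ORF, *YNL195C*. That ORF was covered to 2.04% and 16.0% in WT and to 100% in both *ubc9-6* replicates. The fold was 1.68 and 1.88 in WT and 1.92 and 1.86 in *ubc9-6*.

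The ORF of *YAR1*, which encodes an ankyrin-repeat chaperone for the ribosomal protein Rps3, was the remaining one to lie whole in a region (chrXVI:99082-100211, 1130 bp). Here the region was a gap that closed. In untreated cells a peak over *HSP82*, the heat-inducible Hsp90 gene, ended at or up to 246 bp before its left edge, and a peak over *SUI3*, a translation initiation factor subunit, began 0 to 207 bp beyond its right edge. After heat shock a single peak of 6213 to 6942 bp covered all 3 genes in each list. Its fold of 10.2 and 10.4 in WT and of 8.83 and 9.46 in *ubc9-6* belonged to that whole peak, of which the region was 16.3% to 18.2%.

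The *GND2* region (chrVII:1004104-1006026, 1923 bp) held 94.9% of the ORF for the minor isoform of 6-phosphogluconate dehydrogenase, a pentose phosphate pathway enzyme. The ORF was 100% covered in the 4 heat shock lists. It was 0% covered in 3 untreated lists and 5.14% covered in *ubc9-6* untreated replicate 2, where a peak of 249 bp lay at its end. The heat shock peak also took in *ENO1*, an enolase gene that was fully covered in all 8 lists. Its fold was 7.08 and 6.81 in WT and 3.74 and 4.25 in *ubc9-6*, so the strains did not overlap. *GND2* and *GND1* were 79.1% identical, with a longest identical run of 20 bp.

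*FMP48*, which encodes a putative kinase, had a region over the last 79.8% of its ORF (chrVII:593820-594977, 1158 bp). WT untreated replicate 1 alone had a peak over the first 20.2% of the ORF, and the other 3 untreated lists had none. All 4 heat shock lists covered the ORF fully, with a fold of 1.97 and 1.71 in WT and of 2.37 and 2.00 in *ubc9-6*. The *APJ1* region (chrXIV:481542-482694, 1153 bp) lay inside the ORF of this J-domain co-chaperone, from base 152 to base 1304, between a peak that entered from *NIS1* and a small peak of WT untreated replicate 1 at its end. Coverage of the *APJ1* ORF was 27.3% and 5.23% in untreated WT, 1.13% and 0% in untreated *ubc9-6*, and 100% in each heat shock list.

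**Figure D1:**
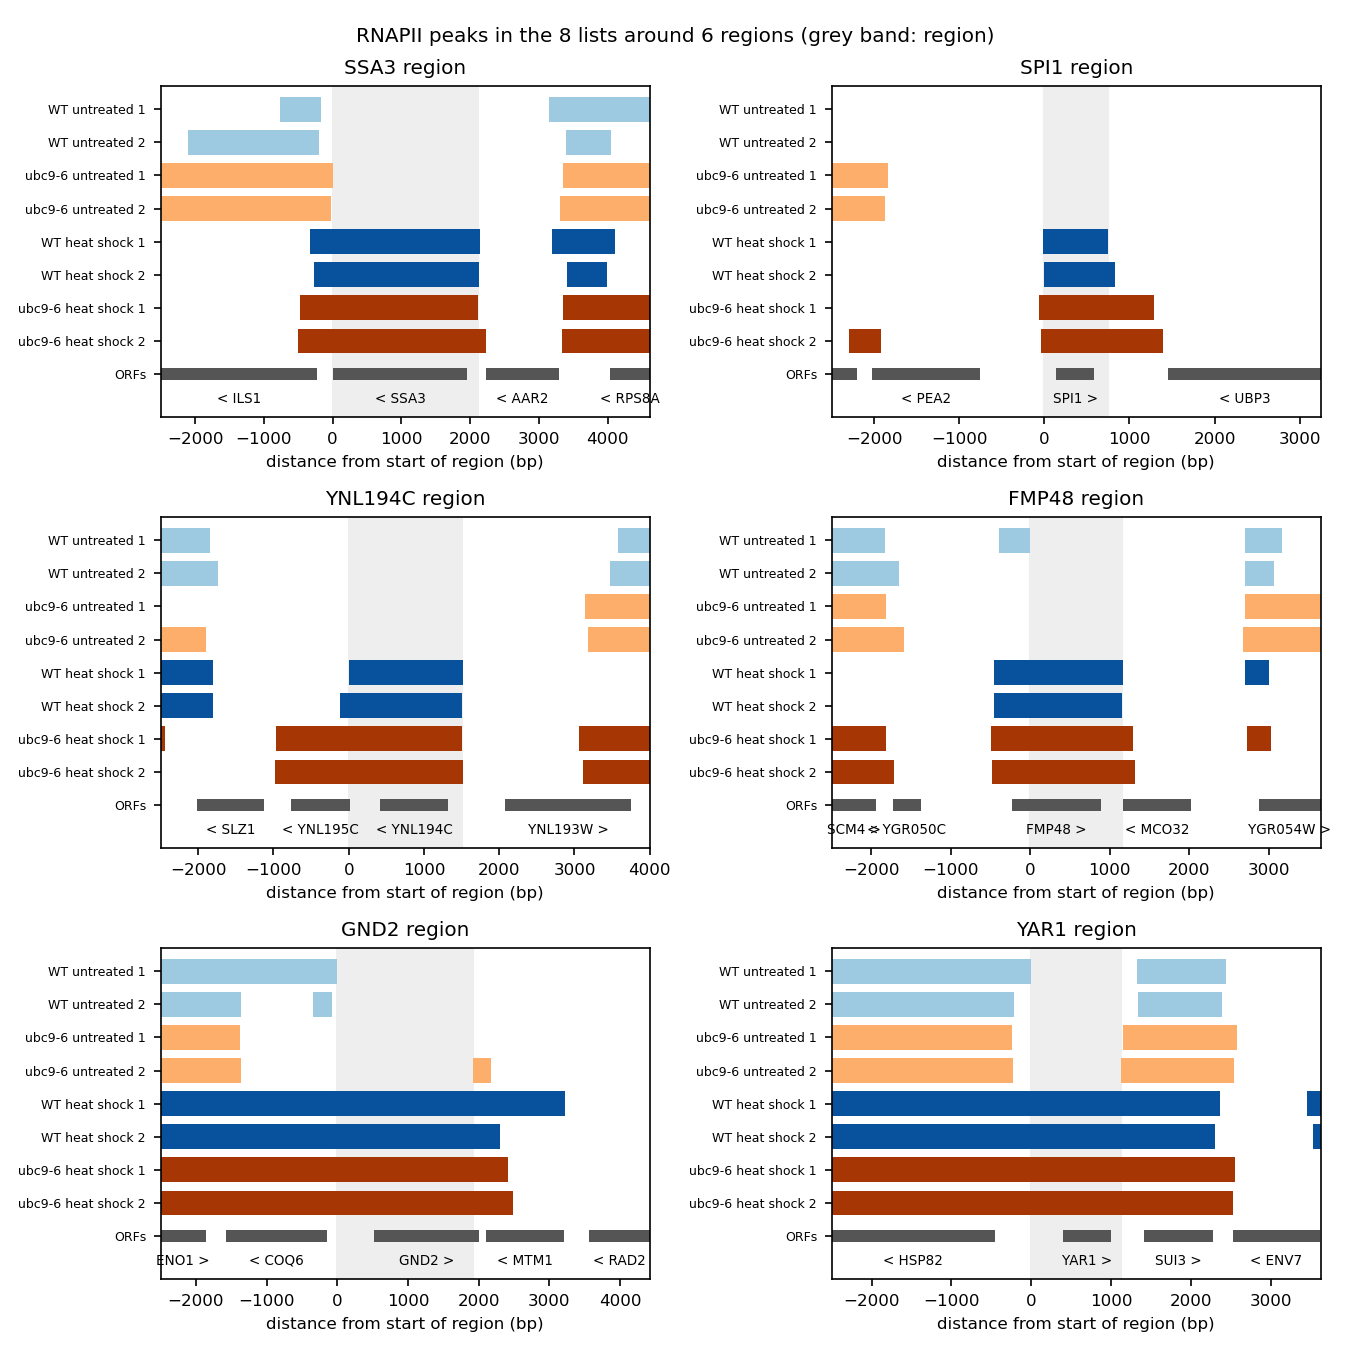
RNAPII peaks (bars) of the 8 lists around 6 regions (grey bands), against the distance in bp from the start of the region, with ORFs below (arrowheads give the direction of transcription). Over *SPI1* and *YNL194C* the heat shock peaks stand alone, over *YAR1* and *GND2* they join neighbouring peaks, and the *ubc9-6* peaks over *SPI1* are 1347 and 1430 bp wide against 768 and 831 bp in WT.

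Of the 6002 ORFs on the nuclear chromosomes, 35 had at least 100 bp in a region (0.583%), and 42 had at least 1 bp. The untreated-only regions held at least 100 bp of 48 ORFs (0.8%). Of the 35 ORFs, 4 lay whole in a region (*SSA3*, *SPI1*, *YNL194C* and *YAR1*), 5 had their start but not their end in it, 4 had their end but not their start, and 22 had an inner part only. In 10 ORFs, 50% or more of the length was in a region. These were the 4 whole ORFs, *GND2*, *FMP48*, *APJ1*, *GRE1*, *PDP3* and *YOL131W*. Without WT untreated replicate 1 the count of 35 became 105, and without WT heat shock replicate 1 it became 57.

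*GRE1*, a stress-induced hydrophilin gene, was covered to 15% in WT untreated replicate 2, to 0% in the other untreated lists and to 100% after heat shock. *PDP3*, a subunit of the NuA3 histone acetyltransferase complex, had 43.7% of its ORF under a peak in WT untreated replicate 1 alone and 100% in each heat shock list. Its fold was among the lowest, at 1.69 and 1.45 in WT and 1.29 and 1.25 in *ubc9-6*. *XBP1*, which encodes a stress-induced transcriptional repressor, was just short of this group. Its ORF was covered to 50.4% and 9.77% in untreated WT and to 7.36% and 9.52% in untreated *ubc9-6*, and to 100% after heat shock. For *FMP48*, *PDP3* and *XBP1*, WT untreated replicate 1 thus reached further into the ORF than the other untreated lists.

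Some ORFs were covered over their start in WT and over their full length in *ubc9-6* after heat shock. *DAK1*, a dihydroxyacetone kinase gene, was at 0% in the 4 untreated lists, at 26.3% and 20.1% in WT heat shock and at 100% in both *ubc9-6* heat shock replicates. *UTR4*, which encodes an enzyme of the methionine salvage pathway, was at 25.0% and 24.0% in WT heat shock and at 100% in both *ubc9-6* replicates, with 0% to 6.14% in the untreated lists. *ALD2*, a cytosolic aldehyde dehydrogenase gene, was at 19.4% and 20.3% in WT and 100% in *ubc9-6*. It is uncertain as a single gene, because *ALD2* and its neighbour *ALD3* were 91.8% identical and shared an identical run of 329 bp, in which reads cannot be told apart. *ZPR1*, which encodes a zinc finger protein needed for folding of eEF1A, was at 0% in the 4 untreated lists and at 100% in *ubc9-6* heat shock, but at 100% and 19.6% in the WT replicates, so WT replicate 1 was like *ubc9-6*.

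The opposite order was seen as well. *LSB6*, a phosphatidylinositol 4-kinase gene, was covered to 100% in both WT heat shock replicates and to 34.0% and 40.1% in *ubc9-6*. *GGA1*, a Golgi adaptor gene, was at 100% in both WT replicates and at 41.0% and 39.1% in *ubc9-6*, and *YJL163C* was at 100% in WT and at 40.6% and 41.0% in *ubc9-6*. In each of these 3 ORFs, part was under a peak in untreated WT too (11.6% to 70.1%).

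**Figure D2:**
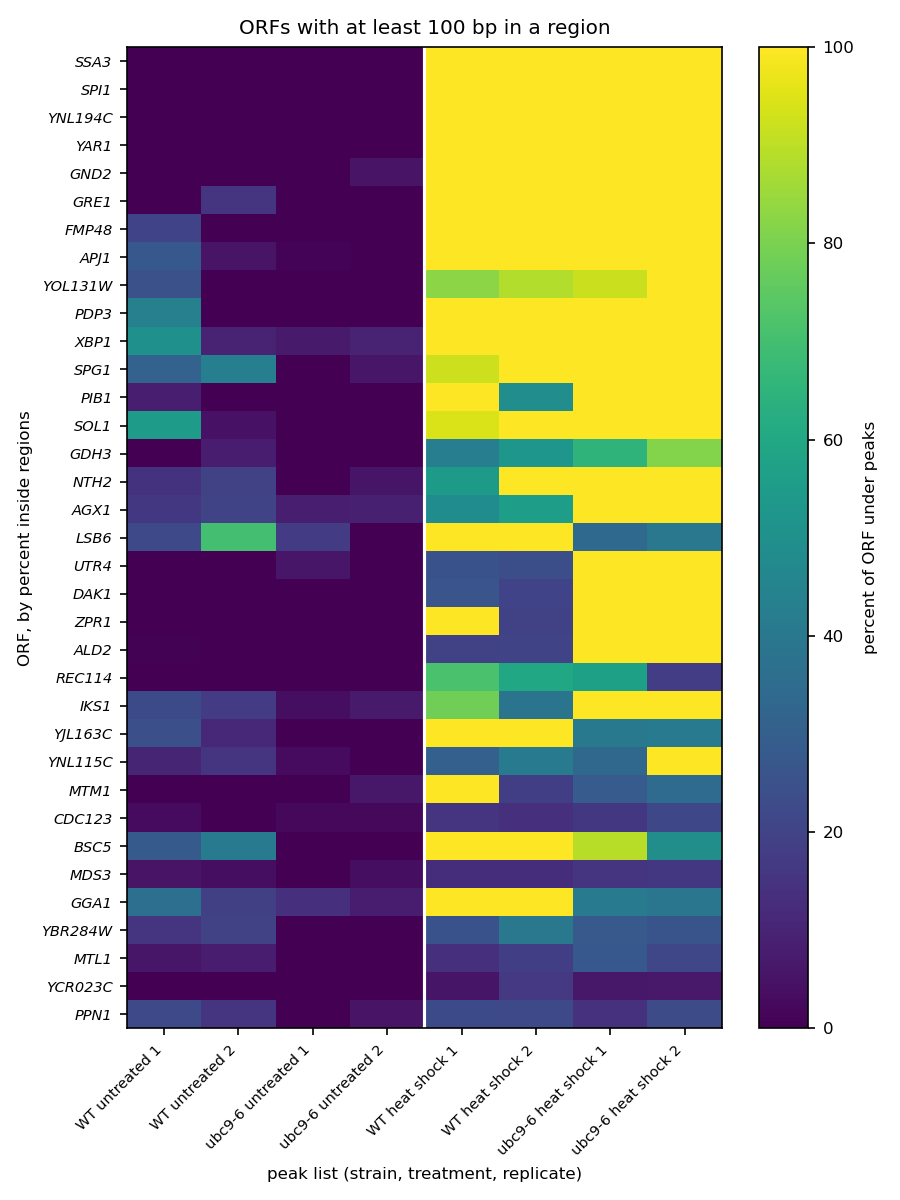
Percent of each of the 35 ORFs with at least 100 bp in a region that lay under peaks, by list (columns: strain, treatment and replicate, untreated left of the white line). The top 4 ORFs go from 0% to 100%, whereas *DAK1*, *UTR4* and *ALD2* are fully covered in *ubc9-6* heat shock only.

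Gene lists were read against the regions by count. Of 28 genes listed as targets of the heat shock factor, 2 had at least 100 bp in a region (*SSA3* and *APJ1*). Of 53 general stress genes it was 4 (*SPI1*, *GND2*, *ALD2* and *XBP1*). None of 39 proteasome and ubiquitin genes, 18 antioxidant genes, 21 ribosome biogenesis genes or 137 ribosomal protein genes (RPGs) had this, beside 35 of all 6002 ORFs (0.583%). Untreated-only regions held 100 bp of no gene of any of these lists. Most genes of the heat shock factor list were occupied at both temperatures: in 21 of 28 at least 50% of the ORF was under peaks in all 8 lists, as it was in 29 of the 53 general stress genes, 31 of the 39 proteasome genes and 837 of all ORFs. A further 5 heat shock factor genes and 15 general stress genes were covered to this extent in all 4 heat shock lists and in 1 to 3 untreated lists. *XBP1* is among the latter and still holds a region, since the rule works on intervals and not on whole ORFs.

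The neighbourhood of the regions held more genes of these lists. Within 500 bp of a region, a window chosen after the data were seen, lay 84 ORFs (1.4%). They included 5 of the 28 heat shock factor genes (*SSA3*, *APJ1*, *HSP82*, *BTN2* and *CPR6*) and 7 of the 53 general stress genes (*SPI1*, *GND2*, *ALD2*, *XBP1*, *SOL4*, *GAC1* and *CYC7*). *RPN4*, the transcription factor of proteasome genes, and *TSA2*, a peroxiredoxin gene, were the members of the proteasome and antioxidant lists. No ribosome biogenesis gene and no RPG was within this distance. *BTN2*, which encodes a protein-sorting factor that collects misfolded proteins, was fully covered in 7 of the 8 lists and at 0% in WT untreated replicate 2. *GAC1*, a regulatory subunit of the Glc7 phosphatase in glycogen synthesis, was at 0% in the same list, at 97.4% or 100% in the other untreated lists and at 100% after heat shock. *SOL4*, which encodes 6-phosphogluconolactonase, was at 100% in WT untreated replicate 1, at 0% in the other 3 untreated lists and at 100% in each heat shock list. In each of these 3 genes, 1 untreated list thus stood apart from the other 3, WT replicate 1 at *SOL4* and WT replicate 2 at *BTN2* and *GAC1*.

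By base pairs, 66.4% of the regions lay inside an ORF, against 72.8% of the nuclear genome, 62.9% of the 1000 regions covered in all 8 lists and 87.8% of the untreated-only regions. A further 9.83% lay only within 500 bp upstream of a start codon, 10.9% only within 500 bp downstream of a stop codon, 9.48% within reach of both, and 3.32% in none of these. By midpoint, 34 of the 55 regions were inside an ORF, 3 upstream only, 8 downstream only, 7 both upstream of a gene and downstream of another, and 3 in none. For the 1000 regions covered in all 8 lists these counts were 646, 96, 123, 108 and 27. Of the untreated-only regions 50 of 55 had their midpoint inside an ORF. In 14 of the 55 regions there was no ORF base at all.

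**Figure D3:**
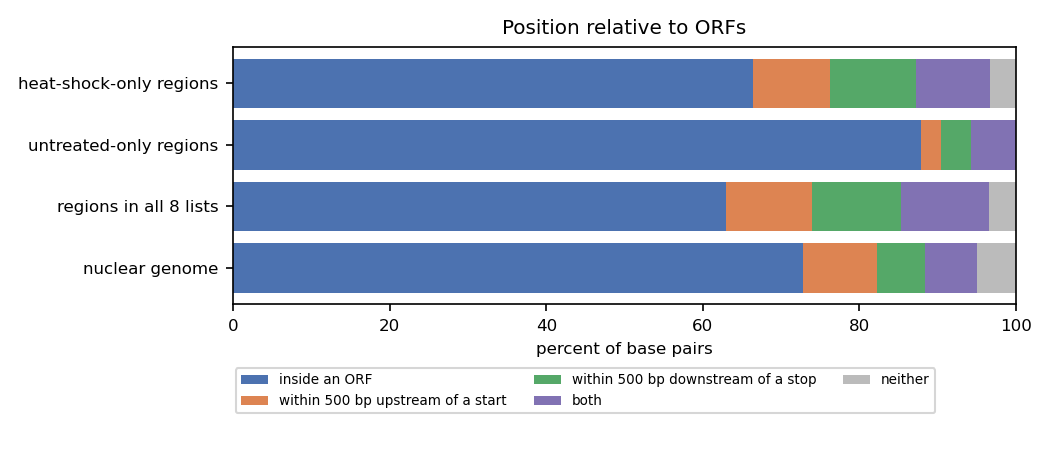
Percent of base pairs inside ORFs, within 500 bp upstream of a start codon, within 500 bp downstream of a stop codon, in both or in none, for 4 sets of sequence. The share inside ORFs is 66.4% for the heat-shock-only regions and 87.8% for the untreated-only regions.

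Several regions without ORF bases continued from a gene that was occupied before heat shock. The 455 bp region between *RPN4* and *OSH2* (chrIV:417115-417569) began where the *RPN4* peak of untreated cells ended, on the side of the *RPN4* start codon. In the untreated lists that peak ended 0 bp and 51 bp (WT) and 76 bp and 48 bp (*ubc9-6*) short of the region. It also held *GPD1* and *GPM2* in untreated cells, except in *ubc9-6* replicate 1. After heat shock the peak over the region was 6023 to 6736 bp wide and held *GPD1*, *GPM2* and *RPN4* in each list. Its fold was 4.34 and 4.36 in WT and 5.02 and 4.91 in *ubc9-6*. This fold belonged to the whole peak, of which the region was 6.75% to 7.55%. The 184 bp region further upstream of *HSP42*, a small heat shock protein gene (chrIV:805792-805975), lay on the upstream side of the untreated peaks that held *HSP42*. Those peaks began 0 bp and 451 bp (WT) and 537 bp and 517 bp (*ubc9-6*) beyond its right edge. These were 2551 bp and 2104 bp wide over *HSP42* alone in WT, with a fold of 5.94 and 2.65. In *ubc9-6* they were 6764 bp and 6787 bp wide and also held *SUP35*, *ARG82* and *HMO1*, with a fold of 1.90 and 1.74, so the folds of the strains refer to different stretches. After heat shock the peak over the region had a fold of 10.3 and 8.44 in WT and of 8.51 and 7.89 in *ubc9-6*. The region between *BTN2* and *SKN1* (chrVII:773982-774884, 903 bp) held a tRNA gene and a Ty1 long terminal repeat, and lay between an untreated peak at *BTN2* and others at *SKN1*. The *GND2* region and the region between *SGT2* and *SLG1* held a tRNA gene each. tRNA genes are transcribed by RNA polymerase III, and reads from repeated sequence can be placed at more than 1 copy.

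Whole peaks and joined edges were set apart by asking, for each heat shock peak over a region, whether it also overlapped an untreated peak on the left or the right. In 5 regions the peak of all 4 heat shock lists overlapped no untreated peak (*YNL194C*, *SPI1*, *ZPR1*, *MCP1* and the region between *GID10* and *YGR067C*). In 30 it did on 1 side, in 7 on both sides, and in 13 the answer differed between the lists. The untreated-only regions gave 6, 19, 8 and 22 in the same order. With no untreated peak allowed within 100 bp, 9 regions were left. Without WT untreated replicate 1, 18 regions stood separate.

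Of the 5, the *MCP1* and *GID10* regions held little or no ORF sequence. The *MCP1* region (chrXV:766630-766880, 251 bp) lay past the stop codon of this mitochondrial membrane protein gene, and its fold was 1.27 and 1.63 in WT and 1.63 and 1.57 in *ubc9-6*. The region between *GID10*, a ubiquitin ligase substrate receptor gene, and *YGR067C* (chrVII:622162-622361) was 200 bp long, and the whole peak there was 275 bp and 346 bp wide in WT and 310 bp and 273 bp in *ubc9-6*. Its fold was 1.44 and 1.54 in WT and 1.29 and 1.24 in *ubc9-6*, below the median of all peaks in each list (1.54 to 1.66).

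Each region has 2 edges, 110 in all. Of these, 52 were set by an untreated peak and 58 were free, that is, set by the heat shock list that reached least far. WT untreated replicate 1 set 33 of the 52, WT untreated replicate 2 set 10, and the *ubc9-6* untreated replicates 1 and 2 set 3 and 6. No edge of this kind was set by more than 1 list. Of the 58 free edges, WT heat shock replicates 1 and 2 set 25 and 17, and the *ubc9-6* heat shock replicates set 9 and 7.

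At 31 of the 58 free edges, both *ubc9-6* heat shock peaks reached beyond both WT peaks. Both WT peaks reached beyond both *ubc9-6* peaks at 9, and the strains overlapped at 18. Over all 2366 edges of the intervals covered in the 4 heat shock lists, the same patterns made up 40.1% and 31.2%. The median difference at the free edges was 92 bp further in *ubc9-6*, next to a median gap between replicates of 63.5 bp in WT and 43.5 bp in *ubc9-6*. Depth per list is unknown, and its part in these widths was not tested.

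**Figure D4:**
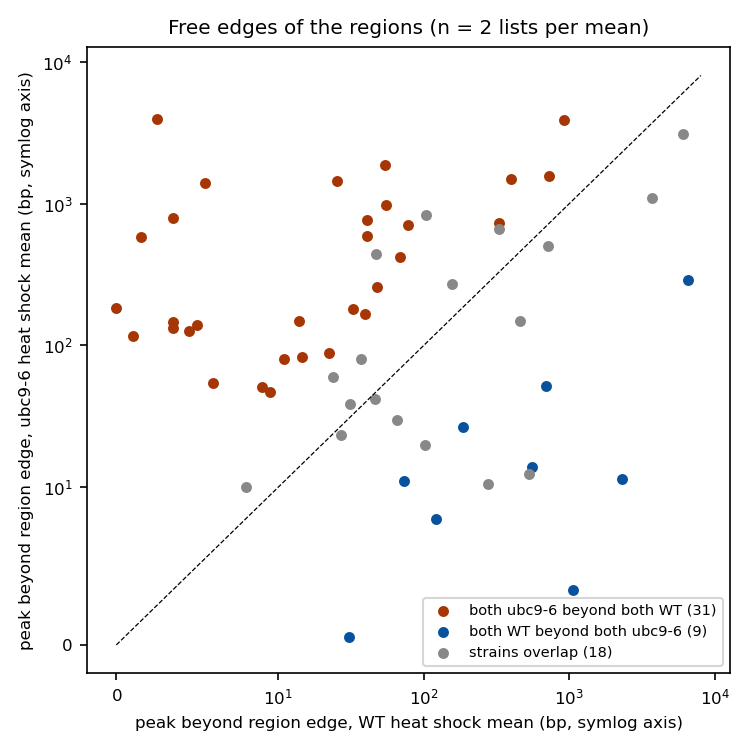
Mean distance in bp by which the heat shock peaks reached beyond each of the 58 free edges, in *ubc9-6* against WT (n = 2 lists each; axes are linear near 0 and logarithmic beyond). In 31 edges both *ubc9-6* peaks reached further than both WT peaks and in 9 the reverse held.

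Peaks over the regions ranged widely in height. The median fold of the covering peaks was 1.99 and 1.92 in the WT heat shock lists and 1.94 and 1.86 in those of *ubc9-6*, beside 1.54 to 1.66 for all peaks in these lists. All peaks include those called in a single list. Over the intervals covered in all 4 heat shock lists, the median fold was 1.82 and 1.84 in WT and 1.73 and 1.69 in *ubc9-6*, and over those that held regions it was 1.97, 1.88, 1.94 and 1.83 in the same order. The highest were the peaks over the *HSP42* and *YAR1* regions, at 10.3 and 10.2 in WT replicate 1. Each list had 52 or 53 distinct peaks over the 55 regions, since the *GND2* and *MTM1* regions shared a peak, as did the *APJ1* region and the one between *APJ1* and *MKS1*. In all lists but WT replicate 1 the regions on either side of *SKN1* shared a peak too.

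The rule did not use the strain, so the fold of the covering peaks was compared between *ubc9-6* and WT after heat shock, with limma on log2 fold centred on the median of each list, over all 1183 intervals covered in the 4 heat shock lists. The fold is that of the whole peak, neighbours included. At a Benjamini-Hochberg adjusted p under 0.05, 81 intervals were called (6.85%), of which 47 were higher in *ubc9-6* (3.97%) and 34 lower (2.87%). This balance depended on the scaling, and without centring 38 were higher and 80 lower. Of the 53 intervals that held regions, 3 were called, 1 higher and 2 lower. The median difference over these 53 was -0.07 on the log2 scale (*ubc9-6* minus WT), with 21 positive and 32 negative, beside 0.00139 over all intervals. Only the called ones are described as changed below, and the 2 replicates per group limit what the test can call.

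The peak over the *ALD2* region had a fold of 1.63 and 1.56 in WT and of 4.07 and 4.17 in *ubc9-6*. It was higher in *ubc9-6* by 1.47 on the log2 scale (SE 0.0746, limma adjusted p = 0.00672, n = 2). In *ubc9-6* this peak was 4781 bp and 4982 bp wide and took in *ALD3*, whereas in WT it was 267 bp and 916 bp wide. The fold thus refers to different stretches in the 2 strains. *ALD3* was 100% covered in both WT heat shock replicates too, outside this peak. In untreated cells *ALD3* was covered to 9.47% and 1.05% in WT and to 100% in both *ubc9-6* replicates. The peak over the *UTR4* region had a fold of 5.93 and 5.21 in WT and of 2.97 and 2.47 in *ubc9-6*, a difference of -0.94 (SE 0.123, limma adjusted p = 0.0316, n = 2). The WT peaks were 1369 bp and 1339 bp wide and held *CYC7* with the start of *UTR4*, whereas the *ubc9-6* peaks were 3470 bp and 3608 bp wide and took in *UTR2*, *CYC7* and *UTR4*, so here too the fold refers to different stretches. The peak over *GND2*, *MTM1* and *ENO1* differed by -0.70 (SE 0.101, limma adjusted p = 0.0363, n = 2). This is not a value of the *GND2* region alone, because *ENO1* was covered before heat shock too. In untreated cells the peak with *ENO1* had a fold of 10.8 in WT replicate 1 and of 4.20 and 4.94 in *ubc9-6*. The fold in WT untreated replicate 2 is not given here, and the part of *ENO1* in the difference was not tested.

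The largest differences that did not pass, 1 in each direction, were those of the *SKN1* to *THI4* region and *YSC84*. *YSC84*, which encodes an actin-binding protein, had 3.12 and 2.15 in WT and 1.46 and 1.48 in *ubc9-6* (log2 difference -0.72, limma adjusted p = 0.0932). Without WT heat shock replicate 1 or 2 it was called (limma adjusted p = 0.00471 and 0.000249). Its peaks were 5403 bp and 5019 bp wide in WT and 457 bp and 2039 bp in *ubc9-6*. In WT heat shock replicate 1 the region between *SKN1* and *THI4* lay under a peak of 917 bp. In WT replicate 2 and both *ubc9-6* replicates the peak was 8092 to 9692 bp wide and held *VPS62*, *BTN2* and *SKN1*. The folds thus refer to different stretches. This region had 1.33 and 4.09 in WT and 4.09 and 3.65 in *ubc9-6* (log2 difference 0.83, limma adjusted p = 0.345), lowest in WT replicate 1. Without WT heat shock replicate 2 it was called (1.63, limma adjusted p = 6.18e-05), and without WT heat shock replicate 1 the difference was 0.02 (limma adjusted p = 0.845). The difference was 0.19 (SE 0.158) for *SSA3*, 0.26 (SE 0.0868) for *SPI1*, 0.19 (SE 0.0840) for *YNL194C* and -0.07 (SE 0.0797) for *YAR1*, and none of these passed. Without *ubc9-6* heat shock replicate 1 or replicate 2, no interval was called by limma (179 and 168 of 1183 at an unadjusted p under 0.05). Without WT heat shock replicate 1 or 2, 450 and 416 intervals were called, 17 and 21 of them with regions. Without centring, 6 intervals with regions were called.

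**Figure D5:**
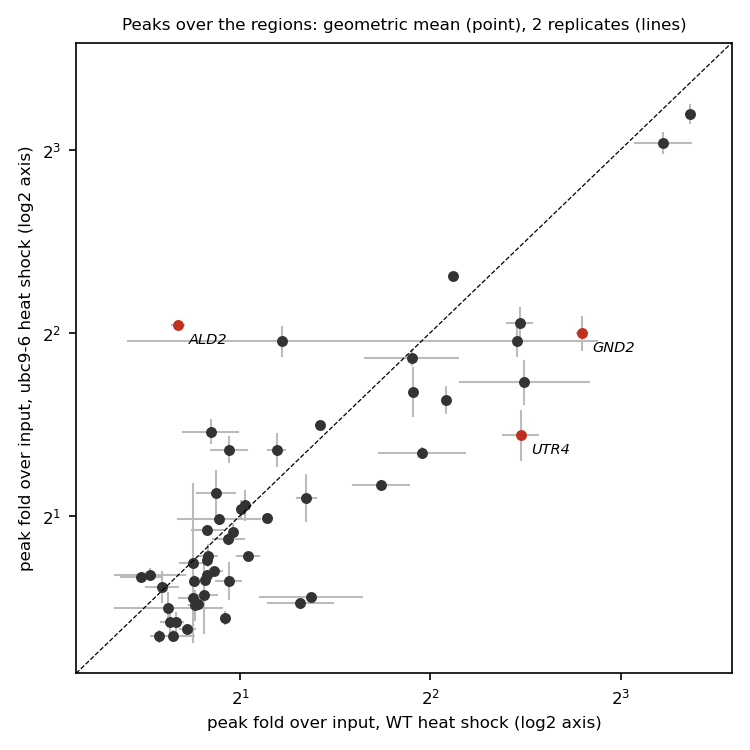
Fold over input of the peak over each of the 53 intervals with regions, *ubc9-6* against WT after heat shock (points, geometric mean; lines, the 2 replicates; both axes log2). The 3 called intervals are red: *ALD2* lies above the diagonal, and *GND2* and *UTR4* lie below it.

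Motifs were counted in the 300 bp before the start codon, on both strands. The stress response element was present in front of 13 of the 35 ORFs with at least 100 bp in a region (37.1%), among them *SPI1*, *GND2*, *YNL194C* and *PDP3*, beside 1331 of 6001 ORFs (22.2%). The heat shock element was present in front of 1 of the 35 (*ZPR1*), beside 52 of 6001 (0.867%). *SSA3* and *APJ1* had neither in this window, in these exact letters. The TATA element (TATAAA) was present in front of 22 of the 35 (62.9%), beside 2893 of 6001 (48.2%). Within the regions themselves, the stress response element occurred 0.743 times per kb, beside 0.700 in the nuclear genome. It occurred 0.806 times per kb in the regions covered in all 8 lists and 0.426 times in the untreated-only regions. It was held by 12 of the 55 heat-shock-only regions and 10 of the 55 untreated-only regions. The heat shock element lay in 2 regions, those of *GND2* and *MSE1* (0.0826 per kb). It lay in 39 of the 1000 regions covered in all 8 lists (0.0379 per kb) and in 0 untreated-only regions, beside 0.0250 per kb in the genome. Of the printed promoters only that of *ZPR1* held a heat shock element, and it held no stress response element, so the elements could not overlap.

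The regions lay on 15 of the 16 nuclear chromosomes, with 12 on chromosome VII, 7 on XIV and none on XI. Their GC content was 39.3%, beside 38.3% in the genome and 40.6% in the untreated-only regions. The shortest regions just inside the limit were in *MTL1* (101 bp) and *YCR023C* (104 bp) and between *PSY2* and *NNR1* (105 bp). The longest intervals just outside it were at *CIS1* (96 bp) and between *HTL1* and *HSP30* (95 bp).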

How the data were processed

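RNAPII and input chromatin was sequenced from 16 samples, and the 8 RNAPII peak lists were analyzed. The authors trimmed the reads, aligned them with Bowtie2 2.3.5 to sacCer3 and called broad peaks with MACS2 2.1.1.20160309 against input, per replicate, with a q cut-off of 0.1. The deposited lists give each peak's position, its fold ratio over input and its −log10 q-value. Depth per list is unknown.

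Regions, edges and positions were computed from the peak positions with Python 3.11.15 and numpy 2.4.6, and the R64 annotation gave ORFs. Fold was compared between strains with limma's two-sided moderated test (3.58.1, R 4.3.3). The scripts were checked on simulated data. Copies were aligned with blastn 2.17.0. Members and gene lists were chosen with earlier results of these data known. Named were the longest and the separate regions, those in listed genes, called intervals, the 2 largest strain differences in each direction, and those beside the length limit, with others chosen after their values were seen. Same-numbered replicates are not described as paired. Alternatives changed the length limit, the peak threshold, the windows, the scaling and the lists used.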

Additional observations from a re-analysis of the deposited data

How the results depend on the processing

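The number of heat-shock-only regions was 96 with a minimum of 50 bp, 34 with 200 bp and 13 with 500 bp. It was 9 with no untreated peak within 100 bp, where the mirror pattern gave 10, and at 500 bp the mirror pattern gave 17. Leaving out 1 list at a time gave 58 to 160 heat-shock-only regions, 65 to 139 untreated-only regions and 38 to 105 ORFs with at least 100 bp. The highest of each came without WT untreated replicate 1. It also gave 5 to 18 separate regions, 34 to 92 joined on 1 side, 7 to 17 joined on both sides and 12 to 33 that differed between lists. Of the ORFs, 10 had 50% or more in a region. Peaks with a −log10 q of at least 5 gave 47 regions, which overlapped 41 of the 55, and 6 whose class differed between lists. With 250 bp windows, 1 midpoint lay both upstream and downstream.

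In the strain comparison, intervals with regions called were 6 without centring. Leaving out 1 list gave 0 to 450 intervals called and 0 to 21 of them with regions. A list left alone in its group is assumed to vary like the other strain's. Deviations of same-numbered replicates had a correlation of 0.0907, and pairing was not tested. With the replicate number as a block, 176 intervals and 8 with regions were called, *YSC84* among them (limma adjusted p = 0.0372). The *ALD2*, *UTR4*, *GND2* with *MTM1*, *YSC84* and *SKN1* to *THI4* intervals kept their direction in every setting that held them. The direction of the other intervals was not followed across settings. Higher against lower calls in *ubc9-6* were 38 against 80 without centring, 26 against 29 at a −log10 q of at least 5 and 189 against 227 without WT heat shock replicate 2, beside 47 against 34.

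A stretch with no called peak is not one shown to lack RNAPII. With 2 replicates per group and unknown depth every edge is uncertain. The replicate gaps given above are medians over the free edges, and single gaps were far wider, such as 7404 bp in WT at the left *PDR15* edge. For edges set by an untreated peak no replicate gap is given.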
